A study of Mus musculus with 27 samples.

Results

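The comparison described here is the effect of losing C3 on the mouse retina, taken over both Gne genotypes at once. Every one of the 27 libraries of the series entered it: 13 from C3-/- mice and 14 from C3+/+ mice, each library from a separately numbered mouse aged 9 months. The C3+/+ side was made up of 7 wildtype mice (Gne+/+, C3+/+) and 7 Gne+/- mice that kept C3, and the C3-/- side of 7 mice with intact Gne and 6 that were also Gne+/-. The C3 difference was fitted together with terms for Gne genotype and for sequencing run, with no interaction, and is given as C3-/- minus C3+/+ on the log2 scale, so positive values are higher without C3. Libraries were made with a 3′ mRNA kit from total retinal RNA (100 ng), and counts are printed as CPM, the counts of a library scaled to a common total. Strain, litter, sex and the way the alleles were made are not given in the sources used here. An effect of C3 loss and an effect of sequence from another strain that the C3-/- mice may carry cannot be told apart in this design.

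C3 is the component on which the classical, lectin and alternative pathways of complement converge. Its cleavage yields C3b, which coats surfaces for uptake by phagocytes, and C3a, a signal read by the receptor C3ar1, and it leads on to C5 and the membrane attack complex. In the retina, microglia carry the receptors for C3 fragments, and complement is known for tagging synapses and cell debris. Gne starts the synthesis of sialic acid, a sugar on cell surfaces that binds the complement regulator factor H.

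Total counts per library were between 13.5 M and 34.2 M, with a median of 19.6 M in C3+/+ and 15.2 M in C3-/- libraries. Run 1 held 10 C3+/+ and 8 C3-/- libraries and run 2 held 4 and 5, and 10387 of 17409 tested genes (59.7%) differed between the runs, so values within each run are given for the genes described in most detail. The Gne genotype term called 1 gene (0.00574%). The tissue label fitted its markers: all 19 rod genes listed were measured, and their summed level was 40703 to 115008 CPM. The mean of 4 Y-linked genes was above 10 CPM in 6 of 14 C3+/+ and 8 of 13 C3-/- libraries. For mice with intact Gne, run 1 had 0 of 5 C3+/+ and 4 of 4 C3-/- libraries above that level, while run 2 had 2 of 2 and 0 of 3. Summed lens genes ranged from 1.19 to 1788 CPM in C3+/+ and from 1.28 to 171 CPM in C3-/- libraries. With the Y-linked level as a term in the fit 102 genes were called, 91 of them among the 100 reported below, and with the lens level 94, of which 93 were shared; the second term was chosen after seeing the data. In whole retina, fewer cells of a type and less RNA per cell cannot be told apart.

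C3 itself (ENSMUSG00000024164, chr17:57203970-57228136, minus strand, GRCm38) followed the labels in every library. It measured 53.9, 122 and 285 CPM as the lowest, median and highest of 14 C3+/+ libraries, and 0, 0.662 and 3.6 CPM in 13 C3-/- libraries. No C3-/- library came near the lowest C3+/+ library in either run. Its log2 difference was -6.98 with an SE of 0.449 (n = 14 and 13; adjusted p = 2.18e-10 by edgeR's quasi-likelihood test with Benjamini-Hochberg adjustment, as for every adjusted p below). Within run 1 the C3 value was -7.28 and within run 2 it was -6.62, where its adjusted p was 0.162. Gne (chr4:44034075-44084177, minus strand), whose dose differs between libraries of both C3 genotypes, measured 13, 52.5 and 162 CPM in C3+/+ and 13, 44.0 and 136 CPM in C3-/- libraries. Its C3 value was -0.19 (SE 0.0916, adjusted p = 0.676), and the ranges overlapped almost entirely.

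Of the 17409 genes tested, 100 (0.574%) passed an adjusted p of 0.05 in the C3 comparison, 51 higher (0.293%) and 49 lower (0.281%) in C3-/- retinas. The median log2 difference of all tested genes was -0.0023, and 1277 genes (7.34%) had an unadjusted p below 0.05. DESeq2 called 171 genes (0.986%) and limma-voom with quality weights 167 (0.959%). Among the 100, 47 differed by more than 1 on the log2 scale and 26 by more than 2, and the median size was 0.94. Of these genes 80 were protein-coding, 5 were pseudogenes and 15 were other non-coding genes, and 17 had provisional symbols. They made up 0.555% of 14418 tested coding genes, 1.29% of 387 pseudogenes and 0.576% of 2604 other non-coding genes. The C3+/+ and C3-/- libraries of a run did not overlap in CPM, in both runs, for 19 genes (0.109% of those tested), 10 higher and 9 lower. Over both runs together the ranges did not overlap for 15 genes (0.0862%), 8 higher and 7 lower, and all 19 were among the 100. Fitted log2 values of genes at or near 0 in 1 genotype depend on the small prior count of the fit and are no bounds.

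**Figure D1:**
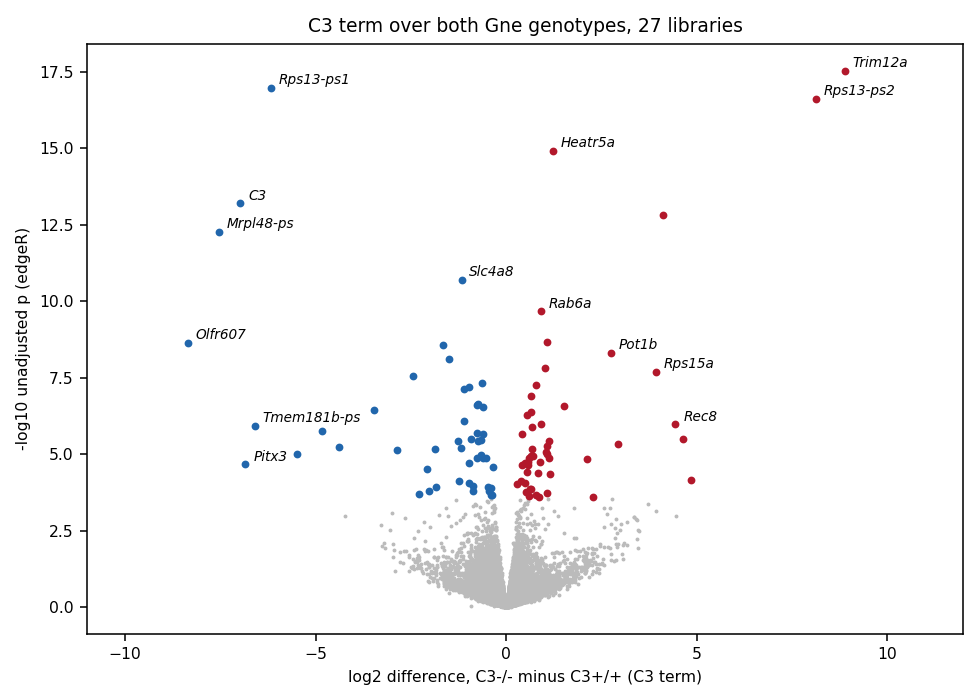
Each point is 1 of 17409 tested genes, with the log2 difference of C3-/- minus C3+/+ on the x axis and -log10 of the unadjusted edgeR p on the y axis. Red points are the 51 genes higher and blue points the 49 genes lower past an adjusted p of 0.05. Trim12a (8.90) and Rps13-ps2 (8.14) lie far to the right, and C3 (-6.98), Rps13-ps1 (-6.17) and Mrpl48-ps (-7.55) far to the left.

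A ribosomal protein gene and its processed copies gave some of the widest gaps between the C3 genotypes. Rps13 encodes a protein of the small ribosomal subunit. Its last coding bases are shown because they hold every difference between Rps13 and Rps13-ps1 within the coding sequence. Lower case marks bases shared by all, and capitals mark the positions at which Rps13-ps1 differs. The sequences are from the GENCODE transcripts on GRCm38, 5′ to 3′ in the sense direction. Rps13 lies on the minus strand and spans chr7:116331553-116332407 here, with an intron left out, Rps13-ps1 is on the plus strand at chr8:87048113-87048172 and Rps13-ps2 on the minus strand at chr7:88530446-88530505.
Rps13: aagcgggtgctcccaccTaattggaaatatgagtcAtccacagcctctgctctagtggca
Rps13-ps1: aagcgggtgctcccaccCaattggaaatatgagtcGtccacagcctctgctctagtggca
Rps13-ps2: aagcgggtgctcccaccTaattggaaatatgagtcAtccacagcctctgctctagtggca
Over the 453 coding bases of Rps13, Rps13-ps1 was identical at 451 and differed by T411C and A429G, counted from the first coding base, with the Rps13 base first. Rps13-ps2 was identical at all 453. Reads from one copy can therefore be assigned to another, and the values of the single copies are uncertain.

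The counts of the 3 copies changed places between the C3 genotypes. Rps13-ps1 (ENSMUSG00000066362) measured 94.0, 259 and 401 CPM as the lowest, median and highest of C3+/+ libraries, and 0.354, 3.15 and 11.5 CPM in C3-/- libraries. Rps13 (ENSMUSG00000090862) measured 0, 5.92 and 94.8 CPM in C3+/+ and 184, 264 and 417 CPM in C3-/- libraries. Rps13-ps2 (ENSMUSG00000069972) was at 0 in 9 of 14 C3+/+ libraries, with a highest value of 0.121 CPM, and at 0.312 to 15.7 CPM in C3-/- libraries. For none of the copies did the C3 genotypes overlap. Rps13-ps1 fell by 6.17 (SE 0.286, adjusted p = 9.2e-14), Rps13 rose by 4.63 (SE 0.763, adjusted p = 0.00142) and Rps13-ps2 rose by 8.14 (SE 0.514, adjusted p = 1.35e-13). The sum over Rps13 and its 7 copies in the table was 264 ± 74.0 CPM in C3+/+ (SD, n = 14) and 284 ± 83.8 CPM in C3-/- libraries (n = 13), a difference smaller than the SD. In run 1 Rps13 was at 4.76 CPM in C3+/+ and 314 CPM in C3-/- libraries, and in run 2 at 74.7 and 203 CPM.

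Rps15a, another small-subunit protein gene (ENSMUSG00000008683, chr7:118104372-118116188, minus strand), rose with no such exchange among the copies in the table. It measured 1.94, 10.7 and 64.9 CPM in C3+/+ and 147, 221 and 449 CPM in C3-/- libraries, with no overlap, and rose by 3.94 (SE 0.476, adjusted p = 2.28e-05). The sum over Rps15a and its 8 copies was 24.2 ± 20.5 CPM (SD, n = 14) and 256 ± 103 CPM (n = 13), so the summed counts differed as well. How reads that match several copies were counted is not fully known, so the Rps15a values are uncertain too. Mrpl48-ps, on chromosome 4 and named as a copy of a mitochondrial ribosomal protein gene, fell. It had 1271 counts over all C3+/+ libraries and 3 over all C3-/- libraries, a ratio of 352 with an exact 95% counting interval of 120 to 1707. It was at 0 in 10 of 13 C3-/- libraries and in 1 C3+/+ library.

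Trim12a led the genes that rose. It belongs to a mouse cluster of TRIM proteins related to the antiviral factor TRIM5 (ENSMUSG00000066258, chr7:104299894-104315466, minus strand). It was at 0 in 13 of 14 C3+/+ libraries, with 1 count in the remaining one, and at 1.29, 4.59 and 11.6 CPM (lowest, median, highest) in C3-/- libraries. With 1051 counts against 1, the ratio of pooled CPM was 1266 with an exact 95% counting interval of 227 to 50071, which covers counting error only. Its neighbour Trim5 rose by 4.87 (adjusted p = 0.0157), from at most 1.5 CPM to 0 to 3.64 CPM, and the value was 7.80 without Gne+/- mouse 4. Both genes are expressed at a low level, and the counts of Trim5 overlapped between the genotypes.

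Heatr5a, which encodes a HEAT repeat protein, had the smallest p among the genes that are well expressed on both sides (ENSMUSG00000035181, chr12:51875871-51971321, minus strand). It measured 31.2, 46.6 and 61.0 CPM in C3+/+ and 83.8, 105 and 164 CPM in C3-/- libraries. Every C3-/- library was above every C3+/+ library. It rose by 1.23 (SE 0.0884, adjusted p = 5.31e-12), by 1.12 within run 1 and 1.4 within run 2. Arhgap31, a GTPase-activating protein for Rac1 and Cdc42 (chr16:38598340-38713274), also had no overlap, at 17.1, 34.1 and 58.7 CPM against 60.4, 69.4 and 102 CPM, and rose by 1.07 (SE 0.133, adjusted p = 3.64e-06). Its value was 1.06 in run 1 and 1.07 in run 2.

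Rab6a, a GTPase of Golgi transport (chr7:100607410-100641268, plus strand), measured 114, 190 and 234 CPM in C3+/+ and 159, 312 and 548 CPM in C3-/- libraries. It rose by 0.92 (SE 0.104, adjusted p = 4.14e-07), with no overlap in run 1 (151 to 234 against 304 to 548 CPM) and some in run 2 (114 to 177 against 159 to 221 CPM). Within run 1 the value was 1.09, and within run 2 it was 0.55 (adjusted p = 0.097). Pot1b, a mouse protein of the telomere cap (chr17:55651951-55712628), rose by 2.75 (SE 0.345, adjusted p = 6.58e-06), from 1.20 to 13.8 CPM in run 1 and from 9.51 to 23.7 CPM in run 2. Ints4, a subunit of the Integrator complex, rose by 1.01 and measured 12.6 to 32.6 CPM in C3+/+ and 32.3 to 55.2 CPM in C3-/- libraries. Within each run the libraries of these 2 genes did not overlap.

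Rec8, a cohesin subunit of meiosis, was at 0 in 6 of 14 C3+/+ libraries and reached 2.90 CPM there, against 3.32 to 10.8 CPM in C3-/- libraries, and rose by 4.45 (SE 0.728, adjusted p = 0.000579). The remaining leading genes that rose differed by less than 1 on the log2 scale. Cers5, a ceramide synthase, rose by 0.77 and had values of 0.77 and 0.80 in runs 1 and 2. Arl6ip1, a membrane protein that shapes the endoplasmic reticulum, rose by 0.65 and was alike in both runs (0.63 and 0.66). The nuclease gene Myg1 rose by 0.91 (0.90 in run 1 and 0.93 in run 2) and Aldh7a1, an enzyme of lysine breakdown, by 0.56 (0.61 and 0.47). Kif13a, a kinesin motor, rose by 0.42. For Kif13a the value was 0.57 in run 1 and 0.09 in run 2, and the difference between the runs did not pass its test (adjusted p = 0.498). In Gne+/+ mice alone the calls of all these genes, from Rec8 to Kif13a, ended. In Gne+/- mice alone all but that of Cers5 ended. With no term for run the calls of Cers5, Arl6ip1, Myg1 and Aldh7a1 ended. Run 2 alone did not call Rec8, Myg1, Aldh7a1 and Kif13a.

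**Figure D2:**
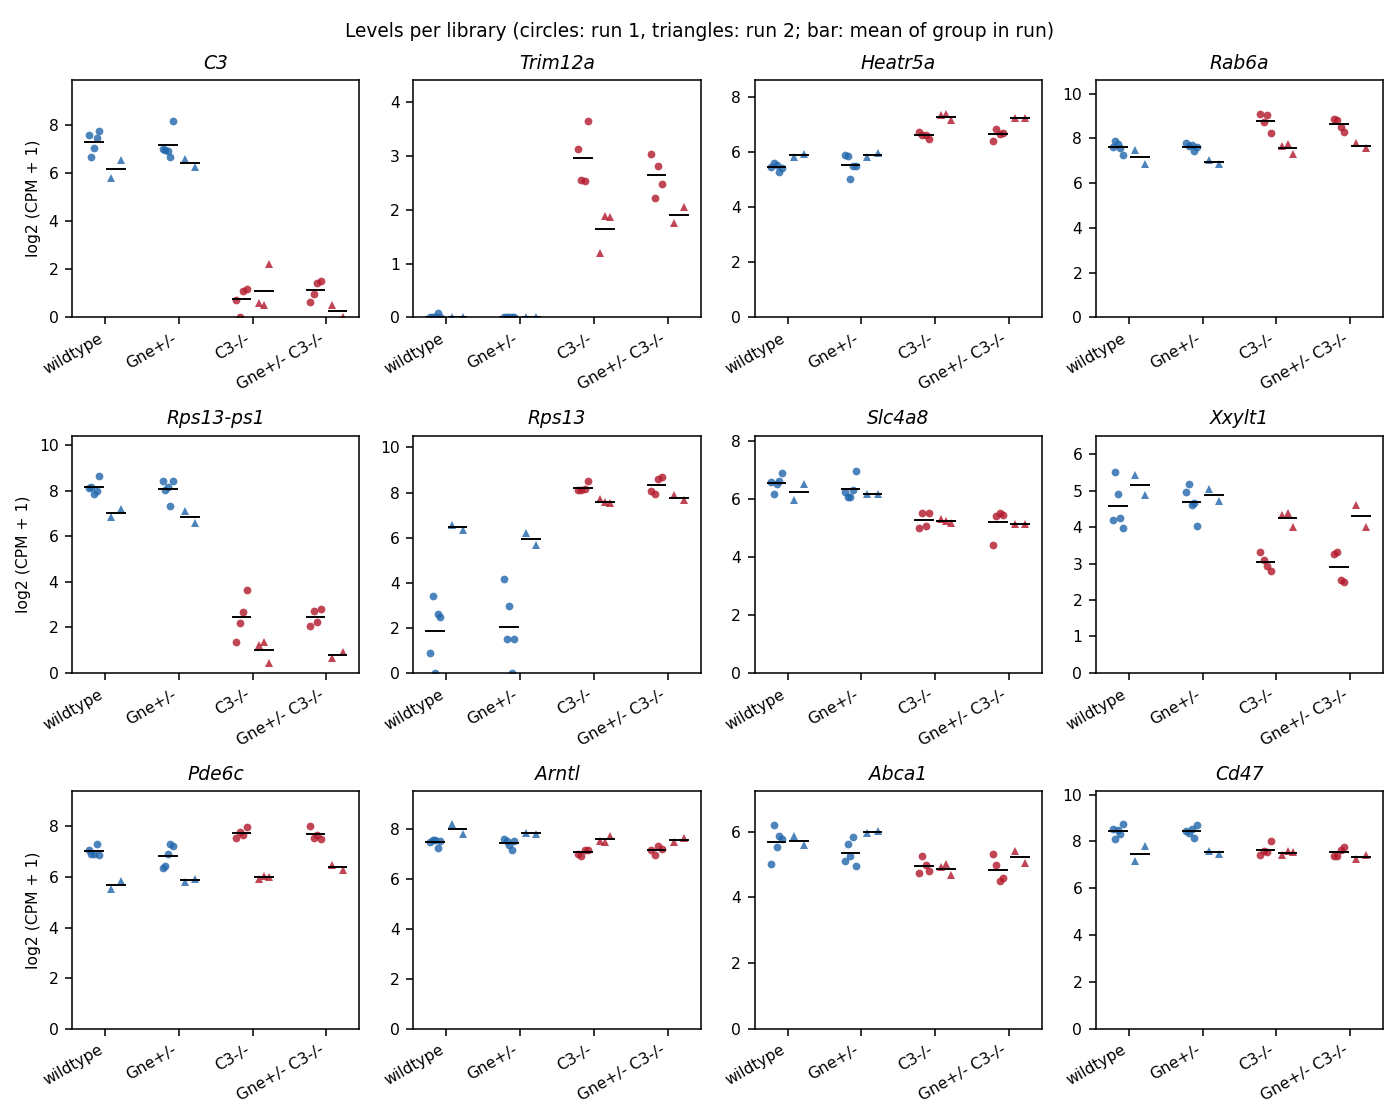
Each panel shows 1 gene, with log2 (CPM + 1) on the y axis and the 4 genotype groups on the x axis. Each point is 1 library (circles run 1, triangles run 2), blue with C3 and red without, and bars are the means of a group in a run. Heatr5a and Slc4a8 separate the C3 genotypes in both runs, Xxylt1 is lower without C3 in each run, and the C3-/- libraries for C3 lie between 0 and 3.6 CPM.

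Among the genes that fell, Slc4a8, a sodium-driven bicarbonate exchanger (ENSMUSG00000023032, chr15:100761747-100823968, plus strand), had the smallest p of the coding genes after C3. It measured 62.2, 77.1 and 126 CPM in C3+/+ and 20.2, 36.8 and 45.0 CPM in C3-/- libraries, with no overlap. It fell by 1.17 (SE 0.12, adjusted p = 4.43e-08), with values of -1.24 in run 1 and -1.04 in run 2. Xxylt1, a xylosyltransferase that extends sugars on Notch, fell by 1.49, from 14.8 to 44.3 CPM to 4.66 to 23.2 CPM. Its means were 25.2 and 7.00 CPM in run 1 and 32.0 and 18.5 CPM in run 2, with no overlap within either run.

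Genes at or near 0 without C3 included Olfr607, an olfactory receptor gene on chromosome 7, and Tmem181b-ps on chromosome 17. Olfr607 was at 0 in all 13 C3-/- libraries and at 0.181 to 7.53 CPM in C3+/+ libraries, at least 202-fold lower against a floor of 3 counts over the group. Tmem181b-ps measured 23.3, 50 and 80.7 CPM in C3+/+ libraries and at most 0.307 CPM in 12 of the C3-/- libraries. In the remaining one, Gne+/- C3-/- mouse 8, it measured 16.9 CPM, and without that library its log2 value moved from -6.60 to -8.85. Pitx3, a transcription factor of lens and midbrain development (chr19:46135685-46148326), was at 0 in all C3-/- libraries and at 0 to 2.17 CPM in C3+/+ libraries, at least 58.1-fold lower. With the mean level of lens genes as a term in the fit, an alternative chosen after seeing the data, Pitx3 had -6.85 (adjusted p = 0.00888). Its call ended with mouse number as a block (-6.45, adjusted p = 0.0549), in run 1 alone (adjusted p = 0.172) and in run 2 alone (adjusted p = 0.379).

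The other leading genes that fell changed by 0.60 to 1.10. Sp1, a widely used transcription factor, fell by 0.98 (adjusted p = 5.46e-05) and Blm, a helicase of DNA repair, by 1.10 (adjusted p = 0.000463). The values were -1.25 in run 1 and -0.48 in run 2 for Sp1, and -1.55 and -0.26 for Blm, and neither difference between the runs passed its test (adjusted p = 1 and 0.201). Akap6, an anchor of protein kinase A, fell by 0.63 (adjusted p = 4.57e-05), with -0.44 in run 1 and -1.03 in run 2. Prdm1, a transcription factor that favours photoreceptor over bipolar fate during mouse retinal development, fell by 0.72 and had -0.72 and -0.77 in the 2 runs. Mylk, the myosin light chain kinase, fell by 0.60, with -0.66 in run 1 and -0.51 in run 2. The scaffold gene Iqgap1 fell by 0.77, with -0.62 in run 1 and -1.09 in run 2. For Akap6 and Iqgap1 the difference between the runs did not pass its test. In Gne+/- mice alone the calls of all these genes, from Sp1 to Iqgap1, ended. In Gne+/+ mice alone those of Blm, Prdm1, Mylk and Iqgap1 ended. With no term for run all but Akap6 lost their calls. Run 1 alone did not call Akap6 and Iqgap1, and run 2 alone did not call Sp1, Blm and Mylk.

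Cd47, the surface signal that holds back uptake by phagocytes through its receptor Sirpa, fell by 0.60 (SE 0.106, adjusted p = 0.00102; chr16:49800533-49915010). It measured 143, 325 and 425 CPM in C3+/+ and 152, 184 and 262 CPM in C3-/- libraries. The drop was seen in run 1, from 349 to 194 CPM with no overlap (276 to 425 against 165 to 262 CPM). In run 2 the means were 183 and 173 CPM, and the value was -0.09. The difference between the runs did not pass its test for Cd47 (adjusted p = 0.201).

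The genes past the threshold were spread unevenly over the chromosomes. Chromosome 7 held 31 of them, 2.38% of its 1300 tested genes, chromosome 12 held 13 (1.94% of 670) and chromosome 16 held 9 (1.65% of 544). Chromosomes 17, 15 and 19 held 8, 7 and 6, which is 0.977%, 0.986% and 1.04% of their tested genes. Of the other autosomes none held more than 4, and none of 1304 tested genes on chromosome 11 or of 567 on the X chromosome passed. Where at least 3 called genes followed each other with less than 5 Mb between starts, they were counted as a stretch. There were 11 such stretches, and they held 64 of the 100 called genes and 616 of the tested genes. The other 36 called genes were 0.214% of 16793 tested genes outside. Stretches were drawn around called genes, so a higher share inside than outside follows from their definition.

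**Figure D3:**
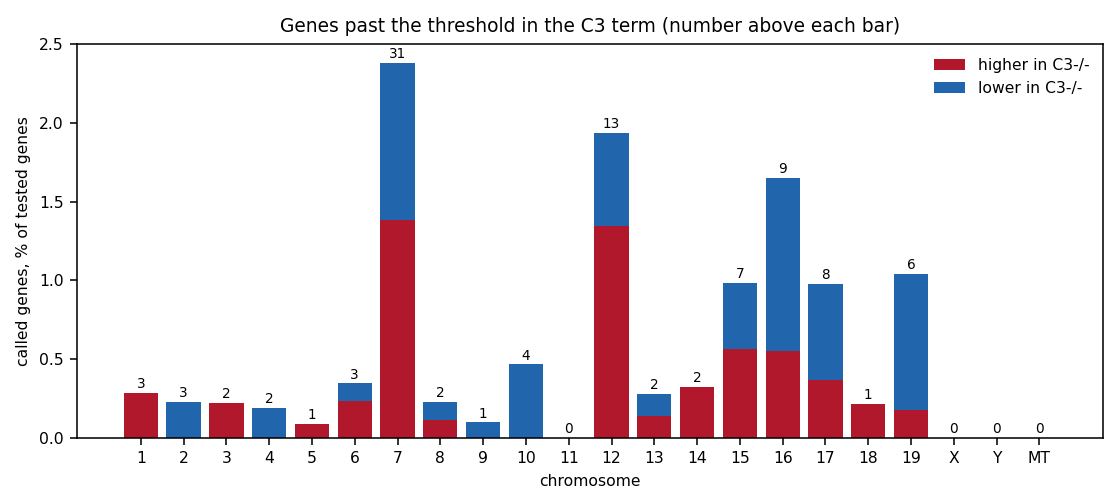
Bars give the genes past an adjusted p of 0.05 in the C3 comparison as a percent of the genes tested on each chromosome, red for higher and blue for lower in C3-/-, with their number on top. Chromosome 7 has 31 (2.38%) and chromosome 12 has 13 (1.94%), while chromosomes 11, X, Y and the mitochondrial genome have 0.

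The longest stretch ran over chr7:80325292-104315466 and held 20 called genes of 188 tested, 11 higher and 9 lower. From its start to its end these were Unc45a, Blm, Iqgap1, Rps13-ps2, the Polycomb subunit gene Eed, Nars2, Ints4, Myo7a, Pgm2l1, Rab6a, Pgap2, Olfr607, Trim5 and Trim12a, along with 6 genes of provisional name. Myo7a, an unconventional myosin of the pigment epithelium and photoreceptor cilium, rose by 2.95 (adjusted p = 0.00175), from a median of 0.643 to 5.07 CPM, with 3.04 in run 1 and 2.57 in run 2. The Myo7a call ended in each run alone and in each Gne genotype alone. Pgm2l1 had 0.78 in run 1 and 0.22 in run 2, and Eed had -1.32 and -0.05. A second stretch at chr7:113207465-118129662 held 6 called of 30 tested genes: the clock gene Arntl, Rps13, Nucb2, Xylt1, Rps15a and Arl6ip1. All but Arntl rose. Another, at chr7:138208974-139978977, held Tcerg1l and Cfap46, which fell, and 1 provisional gene that rose, of 14 tested.

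On chromosome 12, chr12:51691033-53155599 held 4 called of 11 tested genes, with Heatr5a, Ap4s1 (0.54) and Dtd2 (0.85) higher and Akap6 (-0.63) lower. A longer stretch of that chromosome, chr12:16670615-28750472, held 7 of 50, among them Rock2, a kinase that acts on the actin cytoskeleton (0.90), Greb1 (0.66), Mboat2 (0.70), Cpsf3 (0.38) and Trappc12 (0.51), all higher. For 3 of these the values in runs 1 and 2 were 1.31 and 0.10 (Rock2), 0.81 and 0.33 (Greb1) and 0.99 and 0.13 (Mboat2), and run 2 alone called none of the 3. On chromosome 15, Cers5, Slc4a8, Myg1 and Sp1 lay with Nckap5l (0.88) and a provisional gene in chr15:99422035-102436404, 6 of 66 tested. Chromosome 16 had 2 stretches, 1 of 93 tested genes with Xxylt1, Mylk, Arhgap31 and Upk1b (-2.28), and 1 of 26 with Cd47, Slc35a5 (0.78) and Dubr (1.13). The cone gene Pde6c lay with Exoc6 (-0.48) and Tbc1d12 (-0.52) in a stretch of 12 tested genes on chromosome 19, and Scd2, Pitx3 and Cfap58 (-2.02) in another of 65. Of all 100 called genes, 63 also passed in run 1 alone and 18 in run 2 alone. Of the 64 genes in stretches, 42 also passed in run 1 alone and 14 in run 2 alone. The calls of 13 of them ended when some single library was left out, among them Nckap5l (without any of 22 of the 27 libraries), Unc45a (19), Slc35a5 (17), Trappc12 (16), Upk1b (14), Scd2 (14), Cfap58 (10), Eed (9), Nars2 and Nucb2 (8 each), Exoc6 (6) and Cfap46 (2). Directions within stretches varied. In the longest stretch on chromosome 7, 9 of 20 called genes were lower, where 49 of all 100 were. In the second stretch of that chromosome 5 of 6 were higher, and the 3 genes of the stretch with Scd2 were all lower.

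Around C3 itself, 73 other genes were tested within 5 Mb and 4 were called, where 0.574% of all tested genes were. Slc25a41, a mitochondrial carrier gene 0.171 Mb away, fell by 1.87 (adjusted p = 0.00241), from 1.37, 8.05 and 17.3 CPM to 0, 1.60 and 4.78 CPM. Its neighbour Gm17168, of which 63.9% of the span overlaps other genes, fell by 4.84 (adjusted p = 0.00087). Pot1b, 1.55 Mb away, rose, and Kat2b, a histone acetyltransferase gene 3.64 Mb away, fell by 0.65 (adjusted p = 0.00142). The Kat2b value was -0.86 in run 1 and -0.24 in run 2. With C3 these genes form the only stretch of called genes on chromosome 17, 5 of 61 tested.

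Outside the stretches some called genes also had a called neighbour, a feature noticed after the values were seen. Kif13a (0.42) and Nhlrc1 (-0.92), a ubiquitin ligase gene of glycogen metabolism, lie next to each other on chromosome 13. Nhlrc1 measured 11.7 to 35.4 CPM in C3+/+ and 6.30 to 13.9 CPM in C3-/- libraries and did not overlap within either run. Spag16 (1.16) and Vwc2l (1.07) adjoin on chromosome 1, and both rose.

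The additive form of the comparison was tested against both other factors. No gene passed a test of the difference between the C3 effects in the 2 Gne genotypes (0%; edgeR), and 554 genes (3.18%) had an unadjusted p below 0.05 in it. Fitted separately within 1 model, C3 loss called 29 genes (0.167%) with Gne intact and 33 (0.19%) with 1 copy of Gne. For the leading genes the 2 values lay close together: Heatr5a had 1.27 with Gne intact and 1.18 in Gne+/- mice, Slc4a8 had -1.22 and -1.11, and Rps15a 3.96 and 3.93. They lay farther apart for Trim5 (7.87 and 3.41) and Tmem181b-ps (-9.15 and -4.94, unadjusted p of the difference 0.0125). Fitted with no shared library, the 21 genes called in Gne+/+ mice (0.139%) all had the same direction in Gne+/- mice, where 9 of them were called (42.9% of the 21). All 18 tested of the 20 genes called in Gne+/- mice (0.129%) had the same direction in Gne+/+ mice, where 9 were called (45% of the 20).

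**Figure D4:**
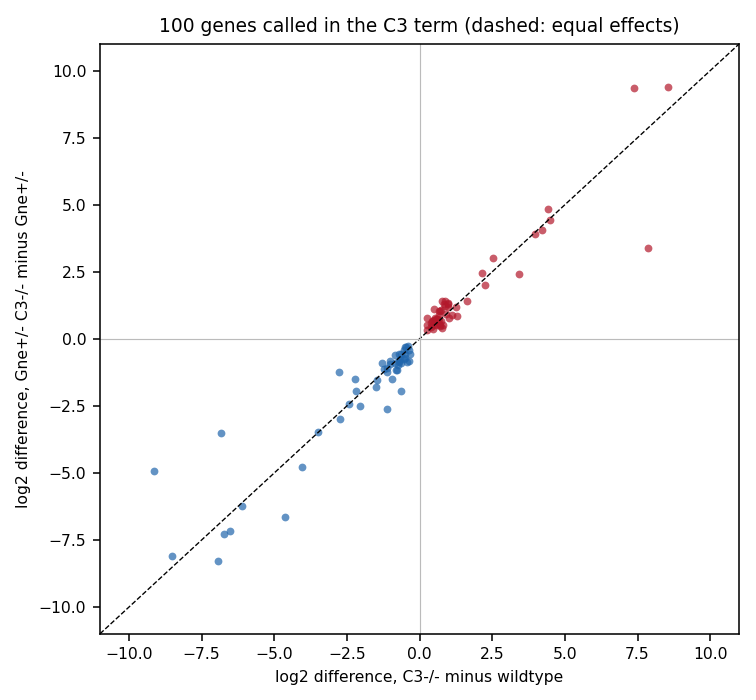
Each point is 1 of the 100 called genes, with its log2 difference of C3-/- minus wildtype on the x axis and of Gne+/- C3-/- minus Gne+/- on the y axis. The dashed line marks equal effects. The pooled call favours genes with equal signs, so the position on 1 diagonal is a description, and the genes farthest from the line are Trim5 (7.87 and 3.41) and Tmem181b-ps (-9.15 and -4.94).

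Between the sequencing runs the C3 effect differed for 6 genes (0.0345%) by the interaction test, 2 of them among the 100, and 722 genes (4.15%) had an unadjusted p below 0.05. In mice with intact Gne, Y-linked levels differed between C3 genotypes in opposite directions in the 2 runs, as given above. The interaction test and the within-run fits had no Y-linked term. In those mice a run difference in the C3 effect and a difference tied to the Y-linked level cannot be told apart. Rps15a went from 9.92 to 314 CPM in run 1 and from 50.1 to 158 CPM in run 2, a log2 effect in run 2 minus that in run 1 of -3.33 (adjusted p = 0.0106). It was higher without C3 in each run. Pik3c2a and Plekha7, which lie beside Rps13 on chromosome 7, changed sign. Pik3c2a, a phosphoinositide kinase, had means of 30 and 75.8 CPM in run 1 and 110.7 and 79.7 CPM in run 2, and Plekha7, a junction protein gene, 44.4 and 22.9 CPM in run 1 and 70.0 and 104.3 CPM in run 2. Neither passed in the pooled comparison. Run 1 alone called 85 genes (0.504%), of which 72 of 83 tested had the same direction in run 2 and 15 were called there (17.6% of the 85). Run 2 alone called 28 (0.149%), of which 27 had the same direction in run 1 and 15 were called (53.6% of the 28). Of the 100 genes, 91 had the same sign in all 4 combinations of run and Gne genotype, against 15.4% of all tested genes, where the call itself favours equal signs.

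The complement cascade beyond C3 was examined as lists. These and the lists below were chosen with earlier results of these data known. Of 8 tested genes that start the cascade, 0 were called (median log2 difference -0.01), with C1qa at 3.75, 5.67 and 21.5 CPM in C3+/+ and 2.58, 5.59 and 12.8 CPM in C3-/- libraries (-0.25, adjusted p = 0.896). C2, which splits to form the C3 convertase, had -0.67 (adjusted p = 0.796), but 96.1% of its span overlaps other genes, where reads are not counted. Of 5 receptors 0 were called (median 0.31): C3ar1, the receptor for C3a, had 0.31 (SE 0.508) and Cr2 had 0.35 (SE 0.398). Of 9 regulators 0 were called (median -0.08). Cd59a, which blocks the membrane attack complex, measured 74.2, 150 and 295 CPM against 86.0, 114 and 216 CPM (-0.23, adjusted p = 0.812). Besides C3, the alternative and terminal list had 3 tested members and C8g was at 3.01 (SE 0.898, adjusted p = 0.184), from a median of 0.0309 to 0.849 CPM. C8g passed in some alternative setting of the fit, but leaving out any single library did not make it pass. Itgam, a chain of complement receptor 3, is overlapped by other genes over nearly its whole span and is listed at 0.

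Immune and glial lists held no called gene. Of 11 tested homeostatic microglia genes the median was 0.18, and their summed level was 24.4 to 76.9 CPM in C3+/+ and 28.0 to 58.6 CPM in C3-/- libraries. The member with the smallest p, Fcrls, had 3.95 (adjusted p = 0.0925), with medians of 0 and 0.635 CPM, and passed without Gne+/- mouse 8 (4.86, adjusted p = 0.0177). P2ry12, P2ry13 and Gpr34 are listed at 0 in all libraries, and each lies within other annotated genes. The 18 tested genes of activated microglia had a median of 0.12 and the 19 of the interferon response 0.08, with Ifitm3 at 0.41 (adjusted p = 0.769). The 12 gliosis genes had a median of -0.23. Serpina3n, a marker of reactive glia, had the largest value of that list, with medians of 24.3 and 2.61 CPM and -2.16 (SE 0.61, adjusted p = 0.166). It had 0.0439 to 69.0 CPM in C3+/+ and 0 to 15.1 CPM in C3-/- libraries, and it passed without wildtype mouse 8 (adjusted p = 0.0396), without C3-/- mouse 7 (adjusted p = 0.0482), in run 1 alone and by DESeq2 and limma-voom.

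Photoreceptor and neuron lists had 2 called members. Pde6c, the catalytic subunit of the cone phosphodiesterase (ENSMUSG00000024992, chr19:38132781-38183958, plus strand), measured 44.8, 118 and 158 CPM in C3+/+ and 60.2, 187 and 262 CPM in C3-/- libraries. In run 1 all C3-/- libraries (182 to 262 CPM) were above all C3+/+ libraries (81.0 to 158 CPM), while the run 2 ranges touched (60.2 to 87.6 against 44.8 to 60.4 CPM). It rose by 0.64 (SE 0.104, adjusted p = 0.000266). This call ended with no run term, in run 2 alone and in each Gne genotype alone. The other 11 cone genes were not called: Arr3, cone arrestin, had 0.30 (SE 0.0969, adjusted p = 0.299), Opn1mw 0.30 (SE 0.118, adjusted p = 0.506), and the list's median was 0.0084. Pou4f1, a transcription factor of retinal ganglion cells, rose by 0.54 (SE 0.109, adjusted p = 0.00517), from 20, 58.4 and 90.4 CPM to 29.3, 92.4 and 130 CPM. Within run 1 it was at 33.8 to 90.4 against 77.0 to 130 CPM. The Pou4f1 call ended with no run term, in each run alone and in each Gne genotype alone, and stayed with any single library left out. Among the other 13 tested ganglion genes, Nefh had 0.49 (adjusted p = 0.0842) and Pou4f2 -0.88 (adjusted p = 0.661). Nefh passed when wildtype mouse 8, Gne+/- mouse 5 or Gne+/- C3-/- mouse 4 was left out. The 19 rod genes (median 0.10), both bipolar lists (15 and 12 genes, medians 0.09 and 0.12), 13 amacrine genes (0.08) and 17 ribbon synapse genes (0.06) held none.

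In the cholesterol and lipid list 2 of 16 genes were called lower, against 0.281% of all tested genes. Of the 16 values 12 were negative (median -0.14, against -0.0023 over all tested genes). Only 3 of the 16 had an unadjusted edgeR p below 0.05, and the list was not tested as a set. Abca1, which exports cholesterol from cells (ENSMUSG00000015243, chr4:53030787-53159895, minus strand), measured 30.3, 51.1 and 72.5 CPM in C3+/+ and 21.6, 30.6 and 42.0 CPM in C3-/- libraries. It fell by 0.73 (SE 0.133, adjusted p = 0.00152), with -0.67 in run 1 and -0.82 in run 2, and the ranges did not overlap in run 2 (47.6 to 64.3 against 24.7 to 42.0 CPM). The Abca1 call ended in run 1 alone and in each Gne genotype alone. Scd2, a desaturase that makes monounsaturated fatty acids, fell by 0.37 (adjusted p = 0.0394), with -0.34 in run 1 and -0.46 in run 2. This call ended without any of 14 single libraries, with an adjusted p of up to 0.0949, with mouse number as a block (adjusted p = 0.0737) and with the lens term. Its relative Scd1 had -0.70 (SE 0.182, adjusted p = 0.0762) and passed when wildtype mouse 2 or wildtype mouse 7 was left out. In the antioxidant list, the metallothionein gene Mt2 rose by 0.68 (SE 0.129, adjusted p = 0.00241), though 82.8% of its span overlaps other genes, and Mt1 had 0.49 (adjusted p = 0.0614). Mt1 passed when any of 4 single libraries was left out. In the clock list, Arntl, which encodes the activator BMAL1, fell by 0.35 (SE 0.0716, adjusted p = 0.00642), from 142, 186 and 295 CPM to 120, 145 and 210 CPM, with -0.36 in run 1 and -0.35 in run 2. Its repressor partner Cry1 had 0.29 (adjusted p = 0.506). The Mt2 call ended with no run term, in each run alone and in each Gne genotype alone. The Arntl call ended in these settings and with no low-count filter.

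Over all 34 lists, 392 members were tested, 74 were not, and 7 were called (1.79%, against 0.574% of all genes), 3 higher and 4 lower, and C3 itself is one of them. The median over the tested members was 0.03, and 28 lists held no called gene. Of 11 tested lens genes, 12 of pigment epithelium and melanocytes, 10 of fibroblasts, 11 of endothelium and 10 of pericytes, 0 were called. In simulated counts 54% of genes changed by 2-fold and 71% of genes changed by 4-fold were recovered in this comparison. Changes of 2-fold or 4-fold in these lists, as well as smaller ones, could therefore be missed. The changed genes were drawn at random from all tested genes, so recovery within a list of low counts is not known.

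**Figure D5:**
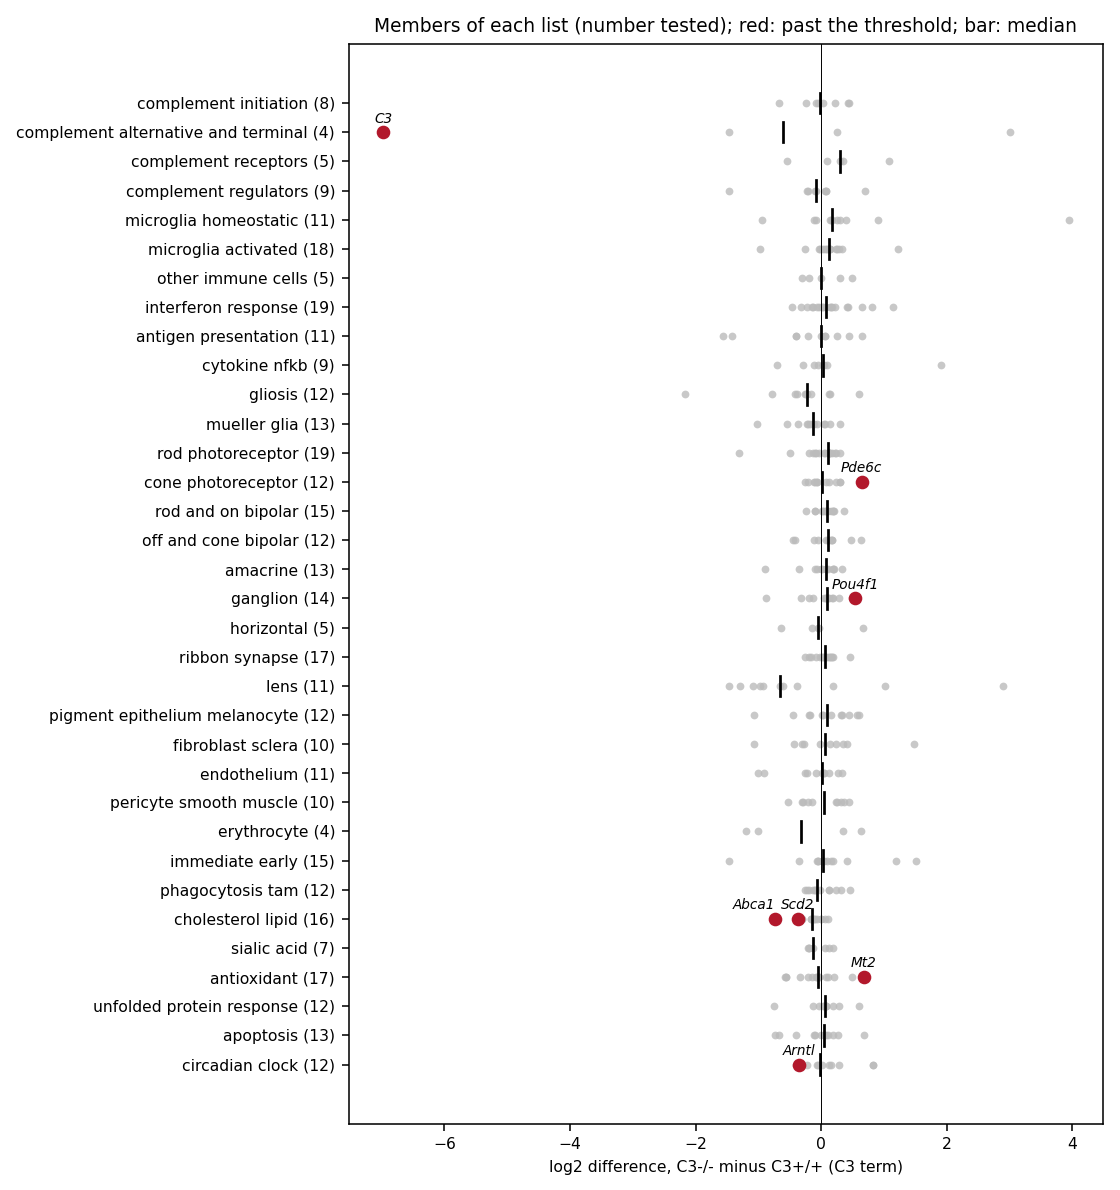
Each point is 1 tested list member, with its log2 difference of C3-/- minus C3+/+ on the x axis, and each line is 1 of 34 lists with the number tested in brackets. Red points passed an adjusted p of 0.05 and black bars are list medians. Red points are C3 (-6.98), Pde6c (0.64), Pou4f1 (0.54), Abca1 (-0.73), Scd2 (-0.37), Mt2 (0.68) and Arntl (-0.35).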

How the data were processed

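Retinal RNA of 27 mice was sequenced with a 3′ kit, per the labels' protocols. The authors deposited 1 unnormalized read count per gene and library. The submitters' processing notes name the builds mm10 and GRCm38, STAR 2.7.3a and Subread 2.0.0. Counting used featureCounts 2.0.3 and Ensembl release 101, over exon and whole-gene features and without strand, per the file headers. Reads where annotated genes overlap were left out: 1251 of 1251 wholly overlapped coding genes are at 0. The 27 single-library tables equalled the series table of 55487 genes; symbols matched 55141. No column was left unused.

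In R 4.3.3 with edgeR 4.0.16, filterByExpr (minimum count 10) left 17409 genes. TMM factors scaled library sizes, also for CPM. The robust quasi-likelihood test used C3 genotype, Gne genotype and run (23 residual degrees of freedom; common biological coefficient of variation 55.2%), with p-values adjusted by Benjamini and Hochberg at 0.05. Standard errors come from the F statistic. Within-run values are fits of that run alone, with no Y-linked term. No duplicate library was seen over 78 same-group pairs (chi-square per degree of freedom at least 9.77). Intervals and floors cover counting error only, since reads copied by PCR, with no molecular identifiers, need not be separate molecules.

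Members and lists were chosen with earlier results of these data known. Named genes were C3, Gne, up to 15 higher and 15 lower called genes with the smallest p (provisional symbols were only counted), the 3 list members with the smallest p, called genes within 5 Mb of C3 and called genes of a stretch. Alternatives were RLE factors, no or a stricter filter (over 1 CPM in at least 6 libraries), DESeq2 1.42.0, limma 3.58.1 (voom with quality weights), no robust estimation, changed terms, each run or Gne genotype alone, a threshold of 0.01 and each library left out. The procedure was tested on simulated counts of 17409 genes: 6 unchanged genes were called, and 0 with no change simulated. One item past the threshold is not reported here.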

Additional observations from a re-analysis of the deposited data

Results flagged for a closer look

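For the named genes, each run's libraries of a C3 genotype were searched for a single library far from the rest (105 groups over 30 genes), and 7 stood apart, where chance alone would mark about 1 in 20. The C3 level was 0 CPM in C3-/- mouse 2, against 0.545 to 1.83 CPM in the other C3-/- libraries of run 1. Pot1b was at 0.0508 CPM in Gne+/- mouse 5 (others 0.432 to 2.09) and Slc4a8 at 20.2 CPM in Gne+/- C3-/- mouse 3 (others 31.3 to 45.0). Akap6 was at 901 CPM in Gne+/- mouse 7 (others 804 to 814). Prdm1 was at 45.4 CPM in wildtype mouse 8 (others 79.7 to 88.0) and at 14.3 CPM in C3-/- mouse 6 (others 21.9 to 32.0), and Blm at 7.99 CPM in wildtype mouse 1 (others 12.9 to 20.3). These levels lie away from the other C3 genotype only for C3, Slc4a8 in Gne+/- C3-/- mouse 3, Pot1b, Prdm1 in C3-/- mouse 6 and Akap6.

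The C3 effect differed between the sequencing runs, by the edgeR interaction test, for 6 genes, of which 5 are given. The test had no Y-linked term. The log2 effect in run 2 minus that in run 1 was -3.33 for Rps15a, -1.82 for Pik3c2a (adjusted p = 0.000683) and 1.55 for Plekha7 (adjusted p = 0.000723). It was -6.01 for Gm35082 on chromosome 7 (adjusted p = 0.0137), with means of 7.43 and 2.49 CPM in run 1 and 16.3 and 0.0606 CPM in run 2 for C3+/+ and C3-/-. It was 9.13 for Gm47431 on chromosome 12 (adjusted p = 0.0241), which stayed below 1 CPM on average. Plekha7, Pik3c2a and Rps15a lie in the region of chromosome 7 that holds Rps13, and run 2 had more counts than run 1 for Rps13 and Rps15a in C3+/+ libraries.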

How the results depend on the processing

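The number of called genes was 100 (51 higher, 49 lower) and stayed between 75 and 109 with RLE factors, a stricter filter, no robust estimation, no Gne term, run and Gne strata, the effect averaged over Gne genotypes, run 1 alone, a Y-linked term (102, of which 91 shared), a threshold of 0.01 and a lens term (94, of which 93 shared; chosen after seeing the data). It was 160 (92 higher) with no filter, 171 with DESeq2 (87 higher, 84 lower), 167 with limma-voom (95 higher) and 44 with no run term (19 higher, 25 lower). With fewer libraries it was 28 in run 2 alone (14 and 14), 21 in Gne+/+ libraries (10 and 11) and 20 in Gne+/- libraries (9 and 11). DESeq2 called all 100 genes, limma-voom 94 and no filter 93. Leaving out 1 library gave 81 to 121 genes (42 to 60 higher, 39 to 61 lower), lowest without Gne+/- C3-/- mouse 5 and highest without wildtype mouse 6, and 79 of 100 genes were called each time. Signs reversed for Nars2 (0.057) and Lrpprc (-0.10), both in run 2 alone, and the cause was not tested. The labels do not say whether equal mouse numbers pair libraries. Correlations of same-numbered libraries were over 0.1 in 4 of 31 pairs and at most 0.256. With the number as replicate block in place of the run term, 98 genes were called (55 higher, 43 lower), 84 shared. The median of all genes stayed within 0.03 of 0. Depth limits low genes such as Trim12a, Trim5 and Olfr607.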
